A study of Mus musculus with 4 samples.

Results

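G protein-coupled receptors carry signals from nucleotides, lipids, protons and peptides outside the cell to heterotrimeric G proteins inside it. The genes described here are those whose symbols begin with P2ry (receptors for extracellular nucleotides and related ligands), S1pr (sphingosine 1-phosphate), Lpar (lysophosphatidic acid), Ptger (prostaglandin E2), Gpr (orphan receptors and receptors named before their ligand was known) or Adgr (adhesion receptors), each prefix followed by its number or subfamily letter. The symbol decides membership, so the set also takes in the pseudogene Gpr137b-ps and several genes for proteins of internal membranes. They were taken by symbol from the deposited count table, which gave 124 members among 24411 gene symbols. Of these, 75 were Gpr genes, 26 Adgr, 8 P2ry, 6 Lpar, 5 S1pr and 4 Ptger genes. In blood and bone marrow such receptors are best known for positioning cells. Sphingosine 1-phosphate receptors draw cells out into blood, oxysterol, lysophosphatidylserine and nucleotide receptors act in migration and activation, and several adhesion receptors serve as lineage markers, among them the product of Adgre1, the macrophage antigen F4/80.

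RNA was sequenced from pro-B cells, sorted from mouse bone marrow by their B220, CD43 and HSA (CD24) surface antigens. The strain was C57BL/6, and no ages were given in the sources used here. The knockout group was Tnpo3fl/fl mb1Cre (mice 51 and 63) and the control group Tnpo3+/+ mb1Cre (mice 55 and 69), so both carried the Cre recombinase that is expressed with Cd79a in the B lineage, and cells that never express Cd79a would be expected to keep their floxed alleles. The product of Tnpo3, transportin 3, carries splicing factors into the nucleus. Each library came from its own mouse, so n = 2 per genotype throughout.

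Total counts per library were 40647384 and 30440627 in knockouts 51 and 63 and 32697489 and 26211372 in controls 55 and 69. Levels are given as CPM, a gene's counts for every 1000000 counts of its library, with totals scaled by edgeR's TMM factors. Tnpo3 itself was at 79.7 and 68.8 CPM in knockouts, against 159 and 148 CPM in controls. By Xist and Y-linked genes, knockout 51 and control 69 were male and knockout 63 and control 55 female. Markers of other cells moved with the genotype. The summed level of 12 B-lineage markers was 3508 and 2761 CPM in knockouts, against 9108 and 11078 CPM in controls, and that of 7 plasmacytoid dendritic cell markers 8282 and 11074 CPM in knockouts, against 1867 and 928 CPM in controls. Sums for 7 conventional dendritic cell markers were 955 and 1045 CPM in knockouts, against 92.9 and 38.2 CPM in controls. The 7 natural killer (NK) cell markers summed to 630 and 200 CPM in knockouts 51 and 63 and to 29.5 and 25.9 CPM in controls, and the 8 neutrophil markers to 174 and 40.0 CPM in knockouts, against 3746 and 2909 CPM in controls. The 7 T cell markers summed to 290 and 182 CPM in knockouts and 56.1 and 81.3 CPM in controls, and the 5 erythroid markers to 1.63 and 3.42 CPM in knockouts and 56.2 and 49.5 CPM in controls. In the test described below, 9 of 12 B-lineage, 8 of 8 neutrophil and 5 of 5 erythroid markers fell, while 7 of 7 plasmacytoid dendritic, 5 of 7 conventional dendritic, 5 of 7 NK and 3 of 7 T cell markers rose. Of 6 stromal and endothelial markers, Kdr and Cdh5 rose (log2 fold changes of 3.55 and 4.5004) and Col1a1 fell (-4.18). No marker of these lists was at 0 in all 4 libraries, and the part of such cells in the receptor values was not tested. B220 is also carried by plasmacytoid dendritic cells. In sorted populations of this kind, a change in which cells were sorted and a change of RNA per cell cannot be told apart, and this holds for every receptor below.

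Of the 124 members, 73 passed the filter on low counts and were tested. Of the other 51, 19 had no count in any library, and none exceeded 42 counts in a library. Knockout was compared with control by edgeR's quasi-likelihood test over all 13507 genes that passed the filter, with Benjamini-Hochberg adjustment and a threshold of 0.05. In the knockout, 22 members rose and 6 fell. Over all tested genes, 11.3% were called higher and 10.9% lower, or 22.2% in either direction. Members that passed the filter through high levels in a single genotype had to differ, so these counts are descriptive. The median log2 fold change was 0.52 over the tested members and -0.02 over all tested genes. The summed level of all 124 members was 2220 and 2408 CPM in knockouts, against 2096 and 2251 CPM in controls, ranges that overlap. In control 69, Adgrg1 alone held 37.1% of the receptor sum.

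**Figure D1:**
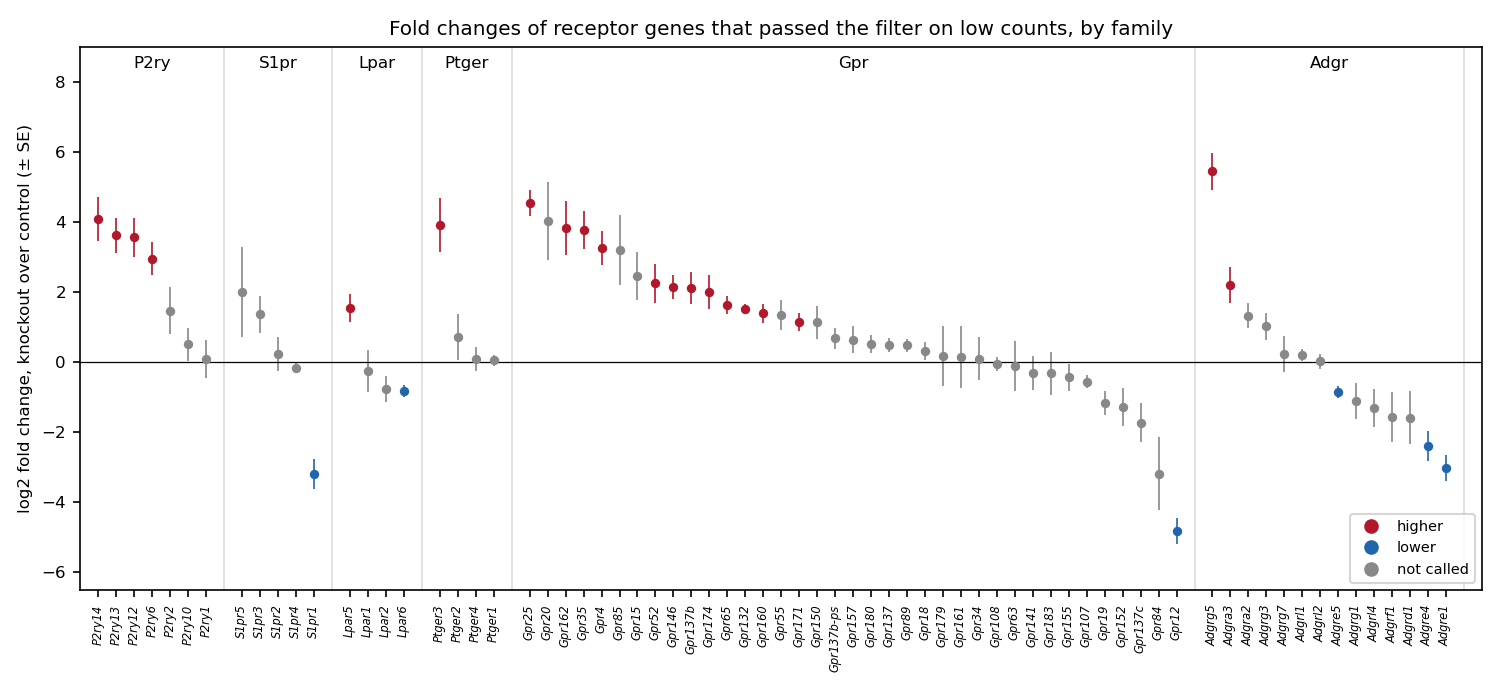
Log2 fold change of knockout over control for 71 of the 73 tested receptor genes, grouped by symbol family, with standard errors as bars. Red points were called higher (20), blue lower (6) and grey not called, and the largest falls were those of Gpr12, S1pr1 and Adgre1 among called genes.

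Purinergic receptors. Of 7 tested P2ry genes, 4 rose and 0 fell (57.1% and 0%, against 11.3% and 10.9% of all tested genes). The 3 with the largest fold changes, P2ry14, P2ry13 and P2ry12, are neighbours. They lie on the minus strand of GRCm38 chromosome 3, inside the body of Med12l, which runs on the plus strand, together with Gpr171. From Gpr171 (chromosome 3, 59096448 to 59101821) to P2ry12 (59216272 to 59262871), with P2ry14 (59113855 to 59153618) and P2ry13 (59207892 to 59210882) between them, the receptor genes span 166 kb. The 250 bases upstream of the RefSeq start of the 3 P2ry genes are printed here because the genes moved together, and those of Gpr12, the receptor gene that fell most, for contrast. They are RefSeq promoter sequences of GRCm38.p6, read 5′ to 3′ on the minus strand, and where a gene had several RefSeq starts the most upstream was taken. That start lies 126 bases inside the gene span given above for P2ry14 and 114 bases upstream of the span for P2ry12, and it is the same base for P2ry13. Capitals mark AGGAAG, the purine core bound by ETS factors.
P2ry14 (chr3:59153493-59153742): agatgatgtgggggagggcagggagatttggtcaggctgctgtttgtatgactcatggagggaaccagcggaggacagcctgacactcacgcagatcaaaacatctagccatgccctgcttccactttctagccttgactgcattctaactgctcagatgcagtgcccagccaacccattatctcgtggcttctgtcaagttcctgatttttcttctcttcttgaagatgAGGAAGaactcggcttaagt
P2ry13 (chr3:59210883-59211132): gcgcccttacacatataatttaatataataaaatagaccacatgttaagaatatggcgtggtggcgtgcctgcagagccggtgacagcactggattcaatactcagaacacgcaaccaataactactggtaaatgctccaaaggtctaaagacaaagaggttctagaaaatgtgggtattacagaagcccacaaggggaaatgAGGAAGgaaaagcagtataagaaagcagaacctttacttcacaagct
P2ry12 (chr3:59262986-59263235): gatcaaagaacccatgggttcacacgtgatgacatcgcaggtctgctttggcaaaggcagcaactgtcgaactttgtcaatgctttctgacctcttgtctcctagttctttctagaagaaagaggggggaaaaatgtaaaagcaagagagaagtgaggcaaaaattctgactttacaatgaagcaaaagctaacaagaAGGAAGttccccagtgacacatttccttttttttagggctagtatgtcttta
Gpr12 (chr5:146585240-146585489): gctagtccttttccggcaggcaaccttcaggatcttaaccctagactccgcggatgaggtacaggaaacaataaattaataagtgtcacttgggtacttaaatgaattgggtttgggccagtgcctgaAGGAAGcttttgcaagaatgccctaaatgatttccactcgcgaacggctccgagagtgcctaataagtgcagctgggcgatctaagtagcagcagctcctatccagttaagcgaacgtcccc

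Both strands of these windows were searched for the E-box CAGGTG, the ETS-IRF composite element (GGAA and GAAA with 2 free bases between), the EBF1-type palindrome (TCCC and GGGA with 2 free bases between) and the PU.1 core GAGGAAGT, and none of the 4 windows held any of them. The shorter AGGAAG, contained in GAGGAAGT, was added after the sequences had been read. It begins 20, 47 and 52 bases before the RefSeq starts of P2ry14, P2ry13 and P2ry12, and 122 bases before that of Gpr12. The same letters occur in 29.2% of 27025 promoter windows of that length, in 27 of the 91 members with a window, in 8 of the 15 windows of receptors that rose and in 1 of the 3 of those that fell. It was picked from the printed windows, which are among these. CAGGTG occurs in 17.1% of all windows and in 4 of the 15 windows of receptors that rose, those of Gpr160, Ptger3, Gpr146 and Gpr4. The composite element, the palindrome and GAGGAAGT occur in 2.38%, 0.773% and 2.42% of all windows, and in none of those 15. The match to letters is a description and shows no binding.

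P2ry14, a receptor for UDP-sugars, was at 105 and 144 CPM in knockouts 51 and 63, against 11.5 and 3.08 CPM in controls 55 and 69. It rose by 4.08 ± 0.63 (standard error) on the log2 scale (edgeR adjusted p of 0.0146). P2ry13, which binds ADP, was at 64.6 and 85.3 CPM in knockouts, against 8.80 and 3.31 CPM in controls. The rise was 3.62 ± 0.49 on the log2 scale (edgeR adjusted p of 0.0110). P2ry12, the ADP receptor of platelets and microglia, was at 21.7 and 42.0 CPM in knockouts, against 3.82 and 1.503 CPM in controls, and rose by 3.57 ± 0.57 on the log2 scale (edgeR adjusted p of 0.0150). In all 3 genes the female of each genotype (knockout 63, control 55) was above the male (knockout 51, control 69), and the genotypes did not overlap. Leaving out a library leaves 1 mouse in its genotype, which is then assumed to vary like the other genotype's pair. On that assumption, here and wherever a library is left out below, edgeR called all 3 genes whichever library was left out.

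Their neighbours differed. Gpr171, a receptor gene expressed in lymphocytes, was already abundant in controls, at 140 and 184 CPM in knockouts, against 87.5 and 57.8 CPM in controls. It rose by 1.15 ± 0.25 on the log2 scale (edgeR adjusted p of 0.0305), a call lost when knockout 63 was left out (0.94, adjusted p of 0.112). The host gene Med12l, a mediator subunit gene, was at 6.59 and 7.04 CPM in knockouts, against 2.66 and 3.98 CPM in controls and was not called (1.04 ± 0.34, edgeR adjusted p of 0.0863). Of the exonic bases of P2ry12, 0.353% overlap an exon of Med12l on the other strand.

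**Figure D2:**
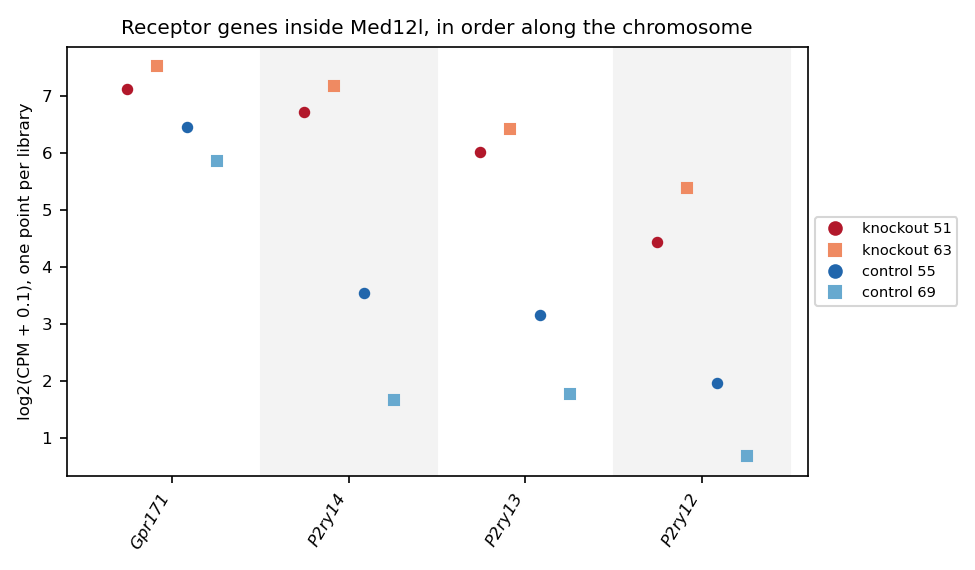
Level of 4 receptor genes inside Med12l in each library, as log2(CPM + 0.1), in order along chromosome 3, with knockouts in red and controls in blue. P2ry14, P2ry13 and P2ry12 sit higher in both knockouts than in either control, and Gpr171 is high in all 4 libraries.

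The remaining P2ry genes were of several kinds. P2ry6, a receptor for UDP on chromosome 7, was at 9.21 and 5.51 CPM in knockouts, against 1.16 and 0.714 CPM in controls, and rose by 2.96 ± 0.47 on the log2 scale (edgeR adjusted p of 0.0150). P2ry2, which responds to ATP and UTP, was at 0.991 and 1.19 CPM in knockouts, against 0.581 and 0.188 CPM in controls, and was not called (edgeR adjusted p of 0.173). P2ry1, another ADP receptor, stayed near 1 CPM, at 0.718 and 1.43 CPM in knockouts, against 1.04 and 0.977 CPM in controls. P2ry4 was below the filter, with 4 counts in each knockout library and none in the controls, at least 2.24-fold higher against a floor of 3 counts over both controls.

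P2ry10 and Gpr174 encode receptors for lysophosphatidylserine and are neighbours on the X chromosome. Gpr174 was at 46.3 and 79.2 CPM in knockouts, against 21.9 and 9.28 CPM in controls, and rose by 2.01 ± 0.48 on the log2 scale (edgeR adjusted p of 0.0376). Leaving out knockout 63 ended that call (1.57, adjusted p of 0.108). P2ry10 was at 52.1 and 52.9 CPM in knockouts, against 54.2 and 19.1 CPM in controls, so that only control 69 stood apart. It was not called (0.52 ± 0.47), but with control 55 left out it passed (1.49, edgeR adjusted p of 0.00283), where the spread comes from the 2 close knockouts, while leaving out control 69 gave -0.05. Gpr34, another receptor for this lipid, was at 1.49 and 1.46 CPM in knockouts, against 2.05 and 0.676 CPM in controls.

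**Figure D3:**
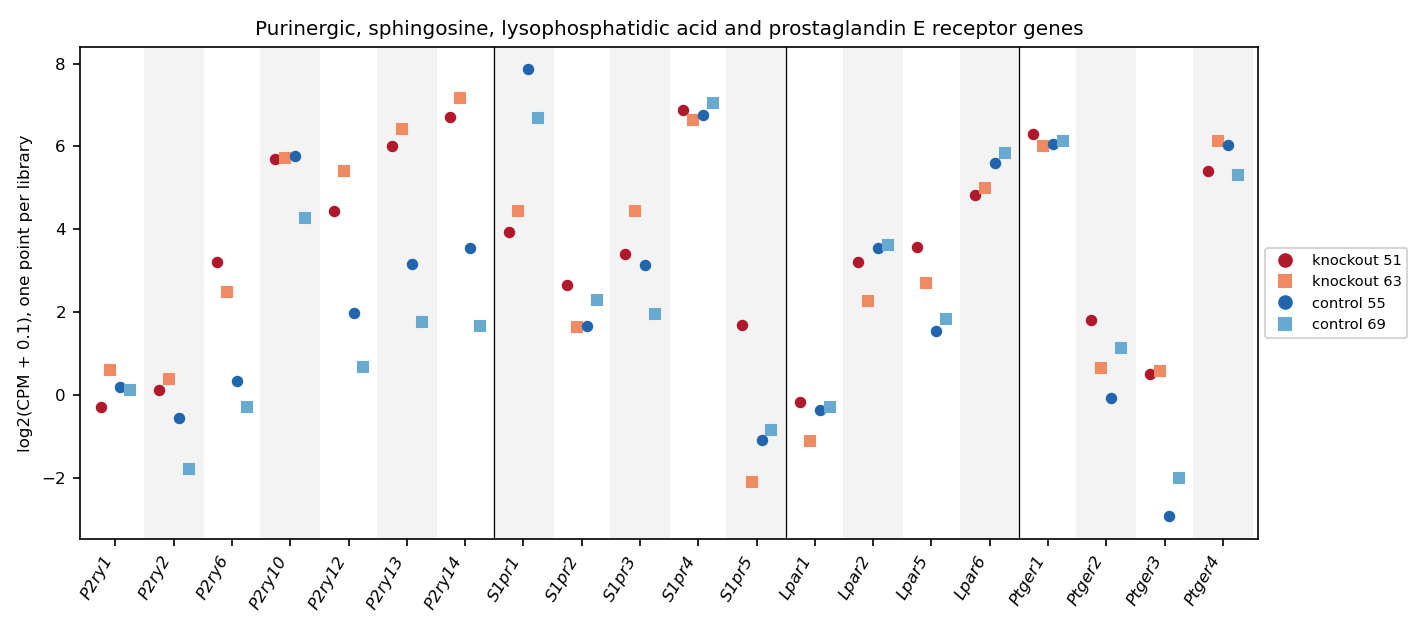
Level of the tested P2ry, S1pr, Lpar and Ptger genes in each library, as log2(CPM + 0.1), with the families divided by vertical lines, knockouts in red and controls in blue. S1pr1 is lower in both knockouts, P2ry12, P2ry13, P2ry14, P2ry6 and Ptger3 are higher, and S1pr4, Ptger1 and Ptger4 overlap between genotypes.

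Sphingosine 1-phosphate receptors. All 5 S1pr genes were tested, and 1 was called. S1pr1, the receptor that lets lymphocytes leave bone marrow and lymphoid organs, was at 15.1 and 21.6 CPM in knockouts 51 and 63, against 232 and 103 CPM in controls 55 and 69. Every knockout was far below either control, and control 55 was above control 69. S1pr1 (chromosome 3, 115710433 to 115715072) fell by 3.19 ± 0.44 on the log2 scale, a 9.15-fold lower level, with an edgeR adjusted p of 0.0111. With a library left out the log2 fold change lay between -3.67 and -2.46. S1pr4, a receptor of blood cells, overlapped between genotypes, at 117 and 98.6 CPM in knockouts, against 109 and 132 CPM in controls (-0.16 ± 0.16, edgeR adjusted p of 0.529). Per kilobase of exon, S1pr1 was at 4.95 and 7.10 CPM per kb in knockouts, against 76.3 and 33.8 CPM per kb in controls. On the same scale S1pr4 was at 49.0 and 41.3 CPM per kb in knockouts, against 45.5 and 55.2 CPM per kb in controls. S1pr1 was below S1pr4 in both knockouts and in control 69, and above it in control 55.

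S1pr3, which acts in the placement of marginal zone B cells, was at 10.5 and 21.5 CPM in knockouts, against 8.62 and 3.76 CPM in controls. It was not called with all libraries (1.36 ± 0.53, edgeR adjusted p of 0.125), and passed without control 55 (2.12, adjusted p of 0.0252), with DESeq2 (1.37, 0.0439) and with sex as a block in edgeR (1.40, 0.0110). S1pr2, which couples to G12 and G13 proteins and confines germinal centre B cells, was at 6.17 and 2.99 CPM in knockouts, against 3.06 and 4.77 CPM in controls. S1pr5, which NK cells use to leave bone marrow, was at 3.12 CPM in knockout 51 and 0.133 CPM in knockout 63, against 0.367 and 0.451 CPM in controls. Its log2 fold change was 2.93 without knockout 63 and -1.59 without knockout 51, each resting on a single knockout mouse. The summed NK markers were likewise higher in knockout 51 (630 CPM) than in knockout 63 (200 CPM). Klrd1 alone among them had the opposite order, at 114 CPM in knockout 51 and 155 CPM in knockout 63, where it made up most of the sum. The part of NK cells in the S1pr5 value was not tested.

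Lysophosphatidic acid and prostaglandin E receptors. Among 4 tested Lpar genes, 1 rose and 1 fell (25% each, against 11.3% and 10.9% of all tested genes). Lpar6 had the highest CPM of them, at 28.1 and 31.9 CPM in knockouts, against 48.2 and 57.4 CPM in controls, and fell by 0.81 ± 0.18 on the log2 scale (edgeR adjusted p of 0.0313). Its gene lies in an intron of Rb1, and 7.56% of its exonic bases overlap Rb1 exons on the other strand. The adjusted p of Lpar6 was 0.154 without knockout 51, 0.102 without knockout 63 and 0.0528 without control 69. Lpar5 was at 11.9 and 6.37 CPM in knockouts, against 2.81 and 3.46 CPM in controls. It rose by 1.54 ± 0.41 (edgeR adjusted p of 0.0491), at the edge of the threshold. The call was lost without knockout 51 (1.02, 0.211), without control 55 (1.43, 0.0884), with limma-voom (0.0606) and with unscaled totals (0.0510). Lpar2 was at 9.19 and 4.71 CPM in knockouts, against 11.6 and 12.2 CPM in controls and was not called (edgeR adjusted p of 0.194). Lpar1 stayed under 1 CPM in every library, and Lpar3 and Lpar4 had at most 7 counts in a library.

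The 4 prostaglandin E2 receptor genes were all tested. Ptger3, which couples to inhibitory G proteins, was at 1.31 and 1.39 CPM in knockouts, against 0.0306 and 0.150 CPM in controls, and rose by 3.91 ± 0.78 on the log2 scale (edgeR adjusted p of 0.0247). Its counts were 53 and 42 in knockouts and 1 and 4 in controls. The call was lost without knockout 51 (3.95), without knockout 63 (3.87) and without control 55 (3.17), and kept without control 69 (5.31). Ptger4 and Ptger2 couple to stimulatory G proteins. Ptger4 was at 42.1 and 69.9 CPM in knockouts, against 65.3 and 39.5 CPM in controls, a spread within each genotype larger than the difference between them (0.09 ± 0.34). Ptger2 was at 3.39 and 1.46 CPM in knockouts, against 0.856 and 2.10 CPM in controls (edgeR adjusted p of 0.466). Ptger1 was at 79.0 and 63.8 CPM in knockouts, against 67.04 and 70.1 CPM in controls. Of its exonic bases, 71.0% overlap exons on the other strand, so without a known strand setting the source of the Ptger1 counts is uncertain.

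Orphan and other Gpr genes. Of 39 tested Gpr genes, 14 rose and 1 fell (35.9% and 2.56%, against 11.3% and 10.9% of all tested genes). Gpr4, Gpr65 and Gpr132, grouped here with the values known, encode receptors activated by extracellular acid to different degrees, and all 3 rose. Gpr132 was at 85.8 and 79.5 CPM in knockouts, against 29.5 and 28.4 CPM in controls. The rise of 1.51 ± 0.14 (edgeR adjusted p of 0.00613) had the smallest standard error of the 3. Gpr65 was at 29.7 and 23.9 CPM in knockouts, against 10.03 and 7.25 CPM in controls and rose by 1.63 ± 0.26 (edgeR adjusted p of 0.0153, or 0.0517 without knockout 51). Of its exonic bases, 24.7% overlap the opposite-strand gene Gm47566. Gpr4 was at 4.31 and 4.05 CPM in knockouts, against 0.306 and 0.564 CPM in controls, a rise of 3.27 ± 0.49 (edgeR adjusted p of 0.0132).

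The largest rises among Gpr genes at 10 CPM or more in both knockouts were those of Gpr25, Gpr162 and Gpr35. Gpr25, long classed as an orphan receptor of lymphocytes, was at 31.5 and 57.0 CPM in knockouts, against 1.68 and 2.10 CPM in controls, and rose by 4.55 ± 0.38 on the log2 scale (edgeR adjusted p of 0.00498). Of its exonic bases, 41.6% overlap the opposite-strand gene Gm26781. Gpr35, a receptor for tryptophan and serotonin metabolites, was at 51.8 and 43.2 CPM in knockouts, against 5.20 and 1.69 CPM in controls, and rose by 3.77 ± 0.54 (edgeR adjusted p of 0.0121). Per kilobase of exon, Gpr25 was at 29.3 and 52.9 CPM per kb in knockouts, against 1.56 and 1.95 CPM per kb in controls.

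Gpr162 was at 39.8 and 49.2 CPM in knockouts, against 5.26 and 0.902 CPM in controls, and rose by 3.83 ± 0.77 on the log2 scale (edgeR adjusted p of 0.0252). Without control 55 its log2 fold change was 5.65. It is an orphan receptor gene that starts 708 bases downstream of the coreceptor gene Cd4 on the same strand (chromosome 6, 124858444 to 124863983). The nearest genes were chosen after the value of Gpr162 was seen. Of them, Cd4, Lag3 and Ptms rose. Cd4 was at 590 and 516 CPM in knockouts, against 29.9 and 7.22 CPM in controls. Lag3, an inhibitory receptor gene beyond Cd4, was at 200 and 163 CPM in knockouts, against 13.4 and 4.02 CPM in controls. P3h3, on the other side of Gpr162, was at 4.16 and 2.92 CPM in knockouts, against 1.01 and 0.225 CPM in controls and was not called (edgeR adjusted p of 0.0637). Ptms, beyond Lag3, was at 293 and 327 CPM in knockouts, against 32.4 and 20.4 CPM in controls. All 4 and Gpr162 were higher in control 55 than in control 69.

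Other Gpr genes rose by smaller steps or from low levels. Gpr146 was at 64.9 and 85.2 CPM in knockouts, against 22.0 and 11.8 CPM in controls (2.15 ± 0.34, edgeR adjusted p of 0.0150). Gpr137b, a lysosomal membrane protein gene, was at 31.2 and 45.0 CPM in knockouts, against 12.4 and 5.11 CPM in controls (2.12 ± 0.46, edgeR adjusted p of 0.0305, or 0.0838 without knockout 63). Its pseudogene Gpr137b-ps, with which it may share reads, was at 34.0 and 48.3 CPM in knockouts, against 31.8 and 19.4 CPM in controls and was not called, so the split between this pair is uncertain. Gpr160, which the naming rule left out and which was chosen after its values were seen, was at 11.9 and 11.4 CPM in knockouts, against 4.74 and 4.13 CPM in controls.

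Gpr52 passed near the limit of detection. It was at 1.11 and 1.29 CPM in knockouts, against 0.306 and 0.188 CPM in controls (edgeR adjusted p of 0.0431), and its call was lost with any library left out (0.106 to 0.177). Just outside the threshold were Adgra2, Gpr15, a homing receptor of T cells, and Gpr20, with edgeR adjusted p-values of 0.0507, 0.0541 and 0.0558.

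Gpr12 was the sole Gpr gene that fell. It encodes a receptor with high constitutive activity, known from brain and oocytes. Its level was 0.669 and 0.564 CPM in knockouts 51 and 63, against 21.3 and 13.8 CPM in controls 55 and 69. Both knockouts were close to each other and far below either control. The fall of 4.82 ± 0.38 on the log2 scale had an edgeR adjusted p of 0.00497 and lay between -5.10 and -4.44 whichever library was omitted. In these libraries 9 of 12 B-lineage, 8 of 8 neutrophil and 5 of 5 erythroid markers also fell. So did 5 of 6 eosinophil, basophil and mast cell markers. The part of any of these cells in the Gpr12 value was not tested. Gpr84, a receptor for medium-chain fatty acids on myeloid cells, had 8 and 0 counts in knockouts and 33 and 27 counts in controls and was not called (edgeR adjusted p of 0.0834).

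Several Gpr genes with well described roles were not called. Gpr183, the oxysterol receptor that positions activated B cells and dendritic cells, was at 4.09 and 8.26 CPM in knockouts, against 11.4 and 3.87 CPM in controls (edgeR adjusted p of 0.741). Its neighbour Gpr18 was at 41.3 and 47.0 CPM in knockouts, against 43.3 and 27.1 CPM in controls. Gpr55, a receptor for lysophosphatidylinositol, was at 4.58 and 2.79 CPM in knockouts, against 1.498 and 1.39 CPM in controls (edgeR adjusted p of 0.0787). Gpr89, Gpr107, Gpr108, Gpr137, Gpr137c, Gpr155 and Gpr180 carry the symbol although several encode proteins of internal membranes, as does Gpr137b. Of these 8, Gpr137b was called higher and the others were not called.

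**Figure D4:**
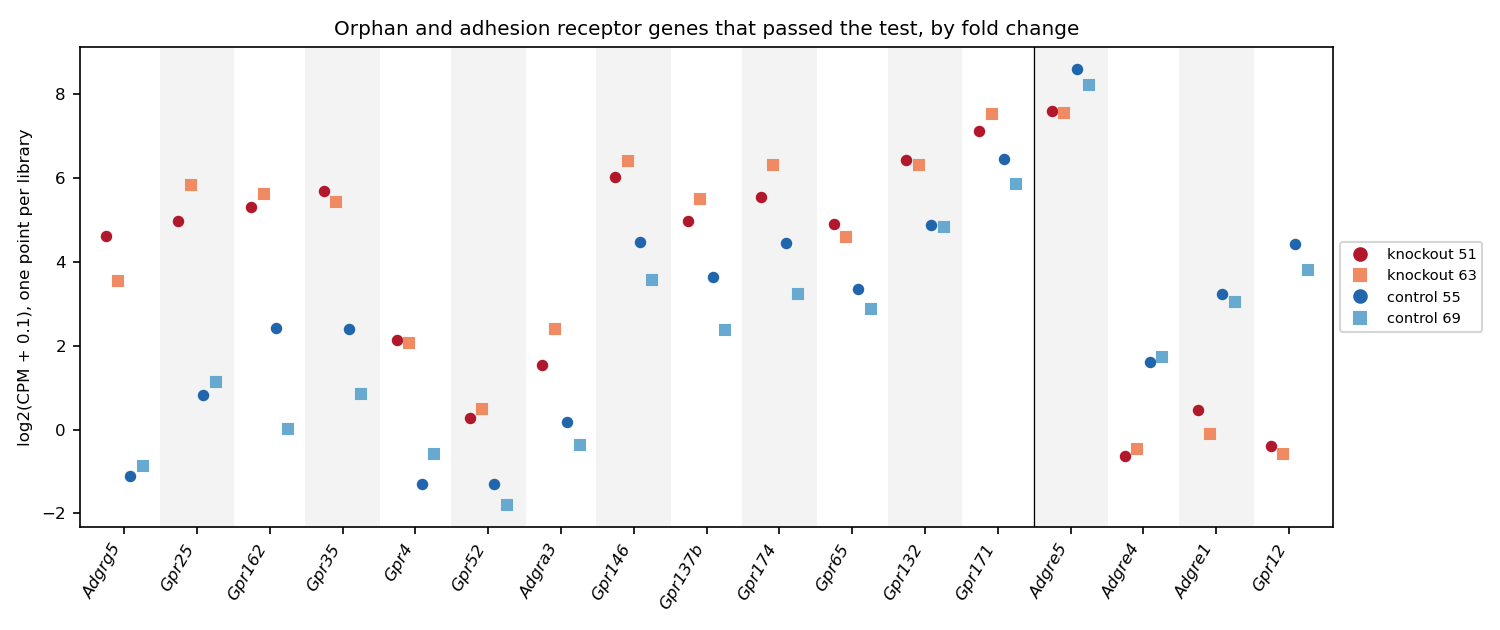
Level of named Gpr and Adgr genes that passed the test in each library, as log2(CPM + 0.1), ordered by fold change, with knockouts in red, controls in blue and genes that fell right of the vertical line. For every gene shown both knockouts lie on the same side of both controls, and Adgrg5 is higher in knockout 51 than in knockout 63.

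Adhesion receptors. Of 14 tested Adgr genes, 2 rose and 3 fell (14.3% and 21.4%, against 11.3% and 10.9% of all tested genes). Adgrg5 showed the largest fold change, at 24.3 and 11.6 CPM in knockouts, against 0.367 and 0.451 CPM in controls (5.45 ± 0.52, edgeR adjusted p of 0.00613). Without knockout 51 it was 4.82 and still passed. Adgrg5 lies on chromosome 8 beside Adgrg1 and Adgrg3, and these neighbours were not called. Adgrg1, with the highest CPM of the set in both knockouts, was at 293 and 221 CPM in knockouts, against 275 and 835 CPM in controls, so that control 69 alone stood apart. With all libraries the change was -1.11 ± 0.52 on the log2 scale and was not called. Leaving out control 55 gave -1.67 and leaving out control 69 gave -0.10, each against a single control mouse. Adgrg3 was at 136 and 175 CPM in knockouts, against 47.1 and 105 CPM in controls (1.03 ± 0.39, edgeR adjusted p of 0.115). It passed with DESeq2 (1.05, 0.0302), without control 69 in edgeR (1.72, 0.00147) and with unfiltered genes (1.06, 0.0452).

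The 3 Adgr genes that fell all belong to the Adgre subfamily, whose members carry epidermal growth factor-like repeats. Adgre1, known as F4/80, was at 1.29 and 0.830 CPM in knockouts, against 9.26 and 8.08 CPM in controls, and fell by 3.02 ± 0.38 on the log2 scale (edgeR adjusted p of 0.00956). F4/80 is found on macrophages and eosinophils. The 6 eosinophil, basophil and mast cell markers summed to 3.42 and 2.39 CPM in knockouts, against 265 and 131 CPM in controls, while the 6 monocyte and macrophage markers summed to 1273 and 861 CPM in knockouts, against 110 and 72.3 CPM in controls. Their part in the Adgre1 value was not tested. Adgre4 was at 0.545 and 0.631 CPM in knockouts, against 2.97 and 3.23 CPM in controls (-2.39 ± 0.43, edgeR adjusted p of 0.0193, or 0.0735 without knockout 51 and 0.0688 without knockout 63).

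Adgre5, which encodes CD97, was at 194 and 187 CPM in knockouts, against 388 and 299 CPM in controls. It fell by 0.85 ± 0.18 (edgeR adjusted p of 0.0273), a call lost without knockout 51 (0.104) and without knockout 63 (0.131). Of its exonic bases, 24.6% overlap another gene, mainly Ddx39 on the other strand. Adgra3 was at 2.80 and 5.21 CPM in knockouts, against 1.04 and 0.676 CPM in controls and rose by 2.21 ± 0.52 (edgeR adjusted p of 0.0363). Its adjusted p was 0.159 without knockout 63 and 0.0648 without control 69. The latrophilin genes Adgrl1 and Adgrl2 were at 19.9 to 33.6 CPM in all 4 libraries and were not called.

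Order of the libraries. Among the 22 receptors that rose, control 55 was above control 69 in 16, and among the 6 that fell in 4. The same order held in 43 of all 73 tested members and 49.8% of all tested genes. Summed plasmacytoid and conventional dendritic cell markers were likewise higher in control 55 (1867 and 92.9 CPM) than in control 69 (928 and 38.2 CPM). The NK, neutrophil and erythroid sums had the same order. So had those of the eosinophil, basophil and mast cell, the monocyte and macrophage, and the stromal and endothelial lists. The B-lineage and T cell sums had the opposite order (9108 and 56.1 CPM in control 55, 11078 and 81.3 CPM in control 69). The part of any of these cells was not tested. Between the knockouts, 9 of the 22 that rose and 3 of the 6 that fell were higher in knockout 51 than in knockout 63. So were 36 of all 73 tested members and 6605 of all 13507 tested genes. Control 55 and knockout 63 are the females, so the order of the libraries and sex cannot be told apart.

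**Figure D5:**
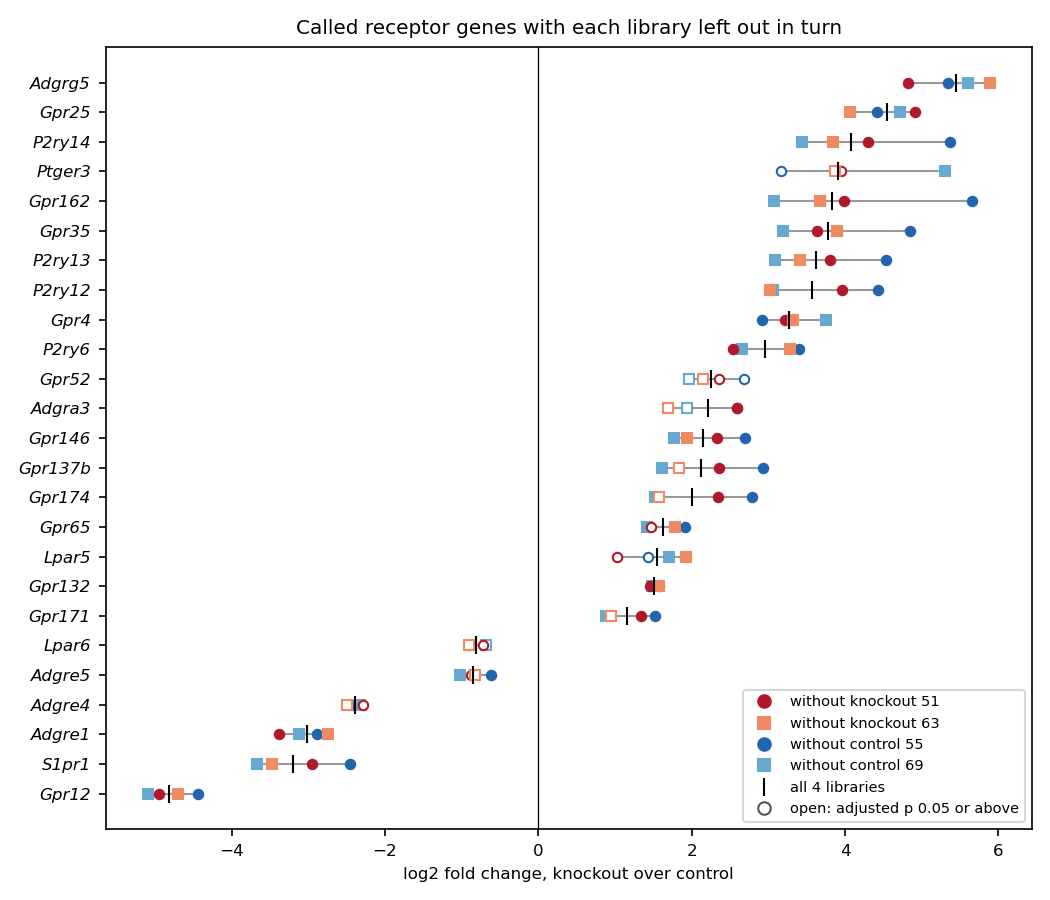
Log2 fold change of 25 named receptor genes that were called, with all 4 libraries (black bar) and with each library left out in turn (coloured points, open where the adjusted p was 0.05 or above). No gene shown changed direction, and the widest range was that of Gpr162, from 3.08 to 5.65.

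Genes around the receptors. Of 77 tested genes that make or break down the ligands or pass on the signal, 14 rose and 11 fell (18.2% and 14.3%, against 11.3% and 10.9% of all tested genes), with a median log2 fold change of 0.05. Of 11 genes listed for sphingosine 1-phosphate and lysophosphatidic acid, 8 were in the count table and 7 were tested. Those 7 are genes of sphingosine 1-phosphate, of which 1 rose and 2 fell. Enpp2, whose product makes lysophosphatidic acid, was below the filter, with at most 6 counts in a library. Plpp1, Plpp2 and Plpp3 were not found under those symbols. Spns2, an exporter of sphingosine 1-phosphate, was at 11.8 and 8.93 CPM in knockouts, against 35.9 and 23.0 CPM in controls (-1.503 ± 0.30, edgeR adjusted p of 0.0254). Sgpp1, a phosphatase that removes the ligand's phosphate, rose by 0.69 ± 0.18, and Sgpp2, a second such phosphatase, fell by 2.53 ± 0.62. Of 3 genes that control S1pr1, 2 fell. Foxo1, a transcription factor, fell by 1.43 ± 0.14, and Cd69, whose product removes S1pr1 from the surface, was at 161 and 205 CPM in knockouts, against 643 and 725 CPM in controls. Klf2, a transcriptional activator of S1pr1, was at 349 and 237 CPM in knockouts, against 946 and 329 CPM in controls and was not called (edgeR adjusted p of 0.173).

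Of 10 tested prostanoid genes 0 rose and 2 fell, namely the cyclooxygenase gene Ptgs1 (-3.12 ± 0.44) and the prostaglandin dehydrogenase gene Hpgd (-2.13 ± 0.44). Among 13 tested genes of extracellular nucleotides and adenosine, 2 rose and 1 fell. P2rx7, an ATP-gated ion channel, was at 49.0 and 68.5 CPM in knockouts, against 9.11 and 7.59 CPM in controls (2.81 ± 0.25, edgeR adjusted p of 0.00543), P2rx4 rose by 1.45 ± 0.27, and P2rx3 fell by 1.18 ± 0.20. Of 3 tested genes for the oxysterol ligands of Gpr183, Cyp27a1 rose by 2.82 ± 0.45. Cyp7b1 had an edgeR adjusted p of 0.0509, and Ch25h was below the filter.

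Of 22 tested heterotrimeric G protein genes, 6 rose and 0 fell. Those were Gng12 (1.76 ± 0.17), Gnb4, Gna15, Gng10, Gnas and Gna11, with log2 fold changes down to 0.60. Gna15, a haematopoietic subunit of the Gq class, was at 118 and 112 CPM in knockouts, against 26.01 and 46.4 CPM in controls. Of 12 tested regulators of G protein signalling, which switch off G protein alpha subunits, 2 rose and 2 fell. Rgs13, known from germinal centre B cells and mast cells, was at 0 in both knockouts and at 4.16 and 2.63 CPM in controls (edgeR adjusted p of 0.00957). Rgs2 fell by 2.15 ± 0.53, and Rgs10 and Rgs18 rose by 2.03 ± 0.39 and 1.97 ± 0.44. Of 7 tested receptor kinases and arrestins, Adrbk2 and Arrb2 rose, and Adrbk1 and Arrb1 fell, with log2 fold changes from -0.86 to 1.75.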

How the data were processed

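The deposited table held raw counts per gene symbol made by the authors with featureCounts of Subread 2.0.0, per the submitters' processing notes, which also name STAR 2.7.4a, SAMtools 1.10, deepTools 3.3.2, DESeq2 and the build GRCm38/mm10. For the counting, neither annotation nor strand setting was given in the sources used here, so overlapping genes on opposite strands cannot be told apart. The authors' normalised table was not used.

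The counts were tested with edgeR 4.0.16 in R 4.3.3 (filterByExpr with a minimum count of 10 and a minimum total of 15, TMM scaling, quasi-likelihood F test, knockout over control, Benjamini-Hochberg adjustment over all 13507 tested genes, threshold 0.05). Fold changes are on the log2 scale with standard errors; CPM used TMM-scaled totals. Library totals of 26211372 to 40647384 counts put 3 counts, the floor used, at 0.0743 to 0.113 CPM. The floor covers counting error only. Replicates differed by more than sampling noise (mean chi-square per gene 63.7 in knockouts and 87.2 in controls). Alternatives were DESeq2 1.42.0, limma-voom (limma 3.58.1), other scalings and filters, each library left out, and sex (read from Xist and Y-linked genes) as a block.

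Coordinates and exon overlaps came from GENCODE M21, and promoters from RefSeq, both on GRCm38. Named with values were all tested P2ry, S1pr, Lpar and Ptger genes, the called Gpr and Adgr genes up to 12 per family and direction by fold change, the 6 most abundant members, and up to 4 genes per pathway list by adjusted p. Members, lists and rule were chosen with earlier results of these data known. Values of some genes are not reported here.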

Additional observations from a re-analysis of the deposited data

Results flagged for a closer look

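With 1 knockout and 1 control of each sex, as read from Xist and Y-linked genes, 6 of the 41 named receptor genes had log2 ratios of knockout to control of opposite sign in the sexes (CPM with 0.1 added). These differences were not tested, since each ratio compares a single pair of mice. S1pr5 was at -1.004 in the female pair and 2.55 in the male pair. P2ry10 was at -0.0342 in the female pair and 1.44 in the male pair. Lpar1 was at -0.73 in the female pair and 0.13 in the male pair, and P2ry1 at 0.42 in the female pair and -0.40 in the male pair. S1pr2 was at -0.0324 in the female pair and 0.36 in the male pair, and Ptger1 at -0.0709 in the female pair and 0.17 in the male pair. None of the 6 was called between genotypes with all 4 libraries in edgeR.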

How the results depend on the processing

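No paired analysis was possible because the genotypes share no mouse number; sex, read from the data, served as a block instead. With each library left out in turn, which leaves 1 mouse assumed to vary like the other genotype's pair, edgeR called 15 to 25 members higher (22 with all 4) and 3 to 8 lower (6 with all 4), 747 to 1649 of all genes higher and 530 to 1580 lower, 7 to 18 pathway genes higher (14 with all 4) and 5 to 10 lower (11 with all 4), and 18 to 27 of the named members (27 with all 4). The lowest counts of members and of all genes came without knockout 63. With sex as a block, 27 members were higher and 9 lower, and 22 pathway genes were higher. That fit also called more of all tested genes, 32.0% against 22.2% without the block. Other scalings, filters and tests gave 20 to 28 members higher and 6 to 7 lower. They called 19.9% (no filter) to 29.3% (DESeq2) of all tested genes. Of the 28 called members, 17 stayed called without knockout 63, 20 without knockout 51, 25 without control 55 or without control 69, and 25 under the stricter filter, which tested 54 members. Each called member kept its direction wherever it was tested. P2ry1 turned to -0.0406 with limma-voom. Uncalled genes changed sign with a library left out, with log2 fold changes from -0.49 to 0.50 for P2ry1, -0.0117 to 1.51 for Ptger2, -0.31 to 0.53 for Ptger4, -0.92 to 0.20 for Lpar1, -0.10 to 0.21 for Ptger1, -0.39 to 0.66 for S1pr2, -1.59 to 2.93 for S1pr5 and -0.0457 to 1.49 for P2ry10. The cause was not tested. With 2 mice per genotype, a gene that missed the threshold is not shown to be unchanged.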
